A study of Mus musculus with 2 samples.

Results

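Rab GTPases are small G proteins that direct membrane traffic, and the genes that encode them were taken as the rows of the deposited table whose symbol is Rab followed by a number and at most a letter and a further digit. This rule gave 59 of 47643 genes. Their levels were compared between macrophages and monocytes of mouse bone marrow, with 1 library of each. The macrophages are labelled as derived with lysophosphatidic acid (LPA), a lipid that signals through G protein-coupled receptors. Both libraries come from wild-type C57BL/6 mice aged 6 weeks. No group was cultured without LPA, and so LPA, culture and differentiation cannot be told apart. The labels leave out the LPA dose, the length of culture, how monocytes were isolated and whether animals were shared or pooled.

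Each Rab switches between a GDP-bound and a GTP-bound form. A guanine nucleotide exchange factor loads it with GTP on its own membrane, where it recruits effectors such as tethers, motors and lipid kinases, and a GTPase-activating protein, usually with a TBC domain, turns it off. GDP dissociation inhibitor then extracts the prenylated Rab from the membrane. In macrophages this cycle is best known for carrying phagosomes and endosomes through early Rab5 and late Rab7 stages to the lysosome.

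The macrophage library held 16726342 unique exon reads and the monocyte library 12473180. A level is given as CPM, reads scaled to a total of 1000000. With 1 library per group no difference has a replicate check, no test was made, and the 95% intervals beside folds are exact conditional (Clopper-Pearson) intervals that cover counting error only. The macrophage and monocyte marker lists fitted the labels. All 10 macrophage genes listed differed upward by 2-fold or more (23160 CPM in sum in macrophages, against 1438 CPM in monocytes). All 8 monocyte genes differed downward by as much (610.7 against 8306 CPM). Markers of other marrow cells, given further below, were also read, and 10 neutrophil genes summed to 6654 CPM in macrophages and 18980 CPM in monocytes. Both are bulk libraries, in which fewer cells of a type and less RNA per cell cannot be told apart.

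The Rab family as a whole was similarly abundant in both libraries, while some members differed by 2-fold or more. Its 59 genes summed to 4520 CPM in macrophages and 4053 CPM in monocytes, which is 0.452% and 0.405% of exon reads. A floor of 5 CPM in at least 1 library was passed by 44 members. Of these, 12 were at least 2-fold higher in macrophages, 4 at least 2-fold lower and 28 within 2-fold, on the scale of log2(CPM + 1). Over all 10407 genes past the floor, 13.8% were higher, 19.9% lower and 66.2% within 2-fold. The median log2 ratio was 0.39 for the Rab genes and -0.23 for all genes, so the Rab median lay 0.62 above that of all genes. Centred on that median, 14 Rab genes were higher and 4 lower, beside 17.4% and 14.6% of all genes. A gene that passes the floor through 1 library alone is more likely to differ by construction. Over all genes, 578 of 713 that passed through macrophages alone were higher, and 543 of 680 through monocytes alone were lower. Of the 12 higher members, 9 passed in this way (Rab13, Rab19, Rab23, Rab27b, Rab34, Rab39, Rab3a, Rab40c and Rab6b), as did 578 of the 1440 higher genes. Of the 4 lower members, 2 did (Rab36 and Rab38), as did 543 of the 2073 lower genes. Rab37 also passed through monocytes alone but lay within 2-fold. Among the 32 members at 5 CPM or more in both libraries, 3 were higher (Rab7b, Rab12 and Rab20) and 2 lower (Rab44 and Rab27a), or 9.38% and 6.25%, against 9.56% and 17.0% of the 9014 such genes.

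**Figure D1:**
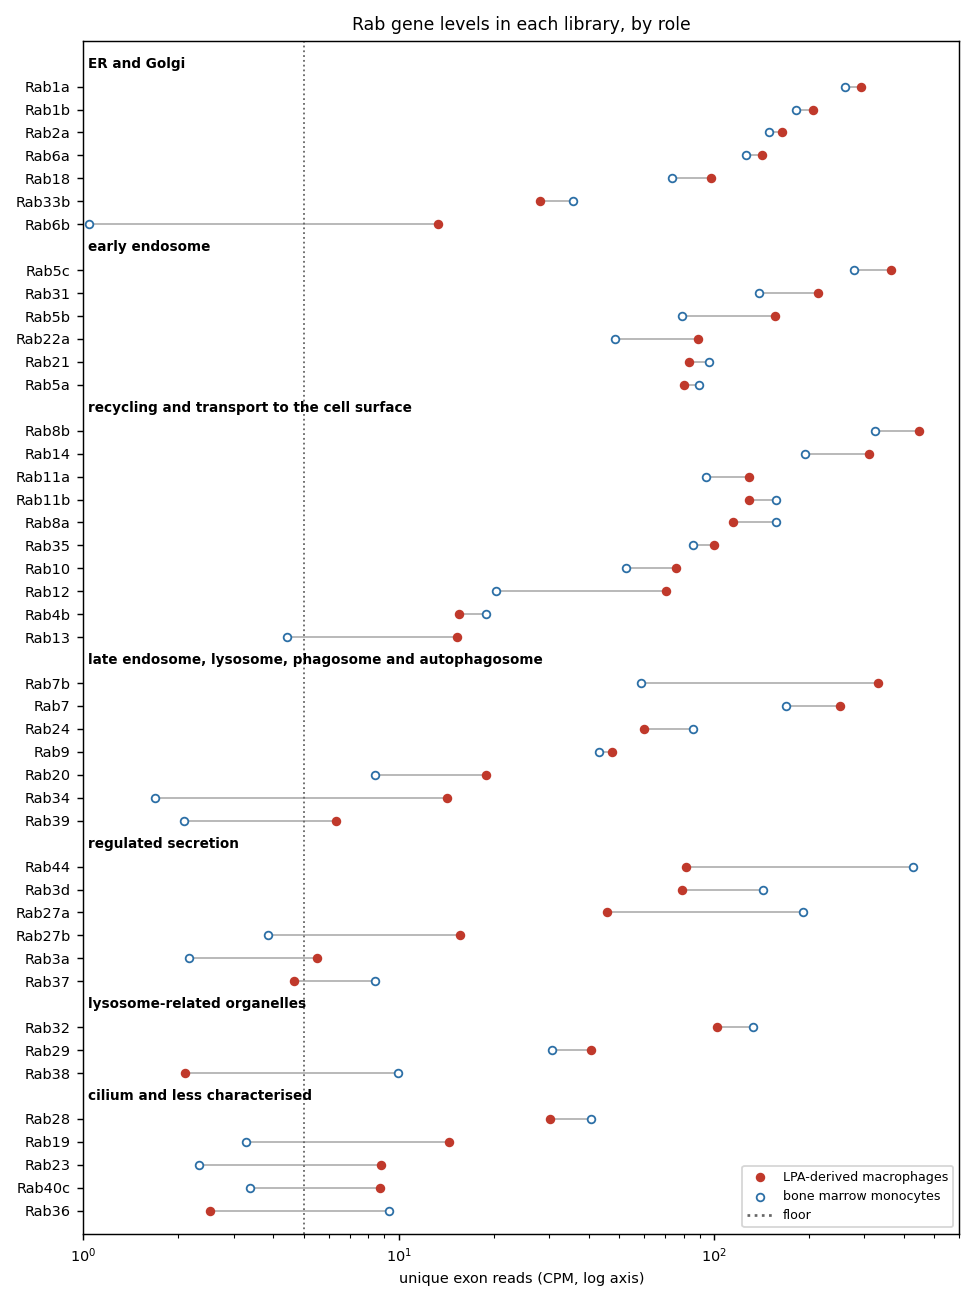
Level of the 44 Rab genes past the floor in the macrophage library (filled red circles) and the monocyte library (open blue circles), in CPM of unique exon reads on a log axis, grouped by role. Rab7b and Rab44 lie far apart in opposite directions at high levels, with 332.1 and 58.8 CPM for Rab7b and 81.7 and 426.1 CPM for Rab44, while most other members above 50 CPM lie close together.

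Between genes, levels were compared per length, as exon reads divided by exon length and by the library total (RPKM on these exon-read totals). Rab5c, an early endosome Rab, stood first in both libraries, at 165.8 RPKM in macrophages and 127.0 RPKM in monocytes. In macrophages it was followed by Rab1b (112.0 RPKM), Rab7 (95.9 RPKM) and Rab8b (94.0 RPKM). In monocytes the second place belonged to Rab44 (103.7 RPKM), ahead of Rab1b (99.1 RPKM) and Rab2a (70.3 RPKM). The 5 highest members made up 36.8% of the summed Rab level in macrophages and 35.2% in monocytes. At a mean of 50 CPM or more over the libraries, 22 of 25 Rab genes lay within 2-fold, beside 69.2% of the 4447 genes in that range. Under 50 CPM, 11 of 19 Rab genes were higher, 2 lower and 6 within 2-fold. The shares of the 5960 genes in that range were 15.4%, 20.6% and 64.0%. These 11 include the 9 that passed the floor through macrophages alone.

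Members of the endoplasmic reticulum and Golgi past the floor lay within 2-fold, apart from Rab6b. Rab1a and Rab1b, which act between these compartments, stood at 292.9 and 205.5 CPM in macrophages, against 260.9 and 181.8 CPM in monocytes. Rab2a stood at 164.5 CPM in macrophages and 149.8 CPM in monocytes, and Rab6a, a Golgi Rab, at 142.3 and 126.0 CPM. Of the 7 members of this group past the floor, 6 lay within 2-fold, beside 66.2% of all genes past the floor. Rab6b, a close relative of Rab6a best known from neurons, had 222 reads in macrophages and 13 in monocytes (13.3 and 1.04 CPM), a 12.7-fold difference (7.30 to 24.3) and the largest ratio among the members. Rab6a nevertheless kept 93.5% of the summed Rab6 level in macrophages, against 99.4% in monocytes.

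All 6 early endosome members lay within 2-fold, beside 66.2% of all genes past the floor. Of these members 4 were on the higher side, as were 4128 of the 10407 genes past the floor. Rab5b came nearest to the threshold, at 155.8 CPM in macrophages and 79.3 CPM in monocytes (1.97-fold, 1.83 to 2.12), and it passed 2-fold under 6 of 12 alternative settings. Rab22a stood at 89.0 CPM in macrophages and 48.4 CPM in monocytes (1.84-fold), and passed 2-fold under the 4 alternatives that change the scaling. Its relative Rab31 stood at 213.5 and 138.9 CPM, 1.54-fold higher (1.45 to 1.63). Rab5a and Rab21, an endosomal Rab that binds integrins, were slightly lower on this scaling, at 80.3 and 83.1 CPM in macrophages against 89.7 and 96.2 CPM in monocytes. The sign of both turned after centring and with TMM or DESeq2 scaling, so no direction is given for them. Rab5c held the same share of the Rab5 level in both libraries, 66.6% in macrophages and 66.8% in monocytes, while Rab5b held 19.8% and 13.2%.

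Among the Rabs of recycling and transport to the cell surface, Rab12 and Rab13 were higher and the other 8 members past the floor lay within 2-fold. Over all genes past the floor, 13.8% were higher and 66.2% within 2-fold. Rab12, which sends the transferrin receptor from recycling endosomes to lysosomes, had 1176 reads in macrophages and 254 in monocytes, or 70.3 and 20.4 CPM (3.45-fold, 3.01 to 3.97). Rab13, known from tight junctions of epithelial cells, stood at 15.3 CPM in macrophages and 4.41 CPM in monocytes (3.47-fold, 2.59 to 4.73). Rab8b, an exocytic Rab, was the highest Rab gene by CPM in macrophages, at 445.9 CPM against 323.1 CPM in monocytes, whereas its paralog Rab8a stood at 115.0 and 157.2 CPM. Rab8b therefore made up 79.3% of the Rab8 level in macrophages and 67.0% in monocytes. A similar shift separated the recycling endosome Rabs: Rab11a made up 67.2% of the Rab11 level in macrophages and 55.0% in monocytes. Rab14, which phagosomes also carry, stood at 309.6 CPM in macrophages and 194.3 CPM in monocytes (1.59-fold, 1.52 to 1.67).

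Late endosomal, lysosomal and phagosomal members included Rab7b, which among those with a mean of 50 CPM or more was the only member called higher with this scaling. Of 7 past the floor, 4 were higher (Rab7b, Rab34, Rab20 and Rab39) and none was lower by 2-fold, beside 13.8% and 19.9% of all genes. Rab34 and Rab39 passed the floor through macrophages alone, and the count was 2 with a pseudocount of 5 CPM and with introns counted. Rab7b (chromosome 1, 131688695 to 131715439), which in mouse macrophages is known to dampen Toll-like receptor signalling from late endosomes, had 5554 reads in macrophages and 733 in monocytes, or 332.1 and 58.8 CPM, a 5.65-fold difference (5.23 to 6.11). The canonical late endosome gene Rab7 stood at 250.2 CPM in macrophages and 169.2 CPM in monocytes, 1.48-fold higher (1.40 to 1.56). The Rab7 subfamily was the only one listed here whose split moved by more than 20 percentage points: Rab7b made up 42.8% of its summed level in macrophages and 16.4% in monocytes. The summed level itself was 167.7 RPKM in macrophages and 77.6 RPKM in monocytes. Rab34, a Rab of phagosomes and macropinosomes, had 238 reads in macrophages and 21 in monocytes (14.2 and 1.68 CPM, 8.45-fold, 5.40 to 13.9). Rab20, which takes part in phagosome maturation, stood at 18.9 CPM in macrophages and 8.42 CPM in monocytes (2.24-fold, 1.79 to 2.83), and an opposite-strand gene shares 25.6% of its exon bases. It was under 2-fold in 4 of 11 alternative settings. Rab39, a phagosomal Rab, was listed at 106 reads in macrophages and 26 in monocytes, but had only 1 and 2 reads across its exon junction. Rab9, which recycles mannose 6-phosphate receptors, stood at 47.5 and 43.1 CPM, and Rab24, a Rab of autophagy, at 60.0 and 85.5 CPM, with 62.4% of its exon bases shared with the opposite-strand gene Prelid1.

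**Figure D2:**
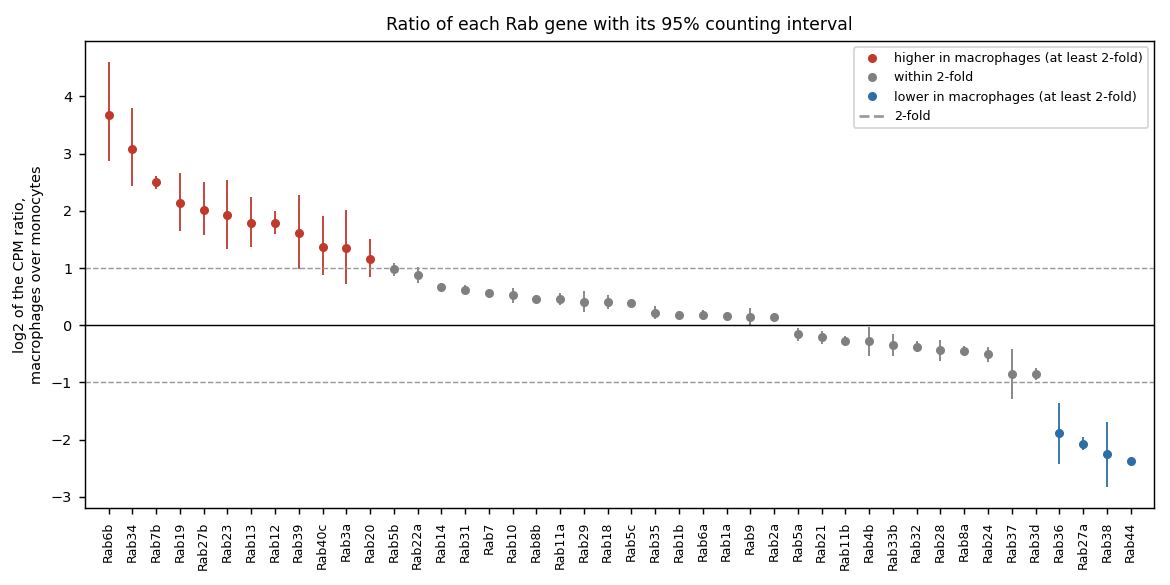
Log2 of the CPM ratio, macrophages over monocytes, of each Rab gene past the floor, with its 95% counting interval, in order of the ratio. The 12 members called higher on log2(CPM + 1) are red and the 4 called lower are blue.

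The abundant Rabs of regulated secretion were lower in macrophages, and Rab44 and Rab27a passed 2-fold. Rab44 (chromosome 17, 29135056 to 29148980), which encodes a large atypical Rab of granule-forming immune cells, had 1367 reads in macrophages and 5315 in monocytes, or 81.7 and 426.1 CPM, 5.21-fold lower (4.91 to 5.54). By CPM it was the highest Rab gene of the monocyte library. Rab27a (chromosome 9, 73044854 to 73097629), which docks secretory lysosomes at the plasma membrane, stood at 45.7 CPM in macrophages and 192.0 CPM in monocytes, 4.20-fold lower (3.87 to 4.57). Rab3d, a Rab of secretory granules, stood at 79.1 and 143.0 CPM (1.81-fold lower, 1.68 to 1.94), which is within the 2-fold limit. Rab37, of mast cell granules, stood at 4.66 and 8.42 CPM. The opposite side was held by Rab27b, with 15.6 CPM in macrophages and 3.85 CPM in monocytes (4.06-fold higher, 2.97 to 5.64), and by Rab3a, with 5.50 and 2.16 CPM (2.54-fold, 1.64 to 4.06). Rab27a still made up 90.1% of the Rab27 level in macrophages, against 99.4% in monocytes. Of the 6 secretory members past the floor, 2 were higher, 2 lower and 2 within 2-fold, beside 13.8%, 19.9% and 66.2% of all genes. In sum, the 9 secretory members took 3.84% of the summed length-scaled Rab level in macrophages and 14.8% in monocytes. Most of this belonged to Rab44 (1.35% in macrophages and 7.79% in monocytes), Rab27a (0.894% and 4.17%) and Rab3d (1.27% and 2.56%).

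Markers of other marrow cells, some of them granule-forming, also differed between the libraries, with members of some lists going both ways. The 10 neutrophil genes summed to 6654 CPM in macrophages and 18980 CPM in monocytes. Of these, 5 were at least 2-fold lower, 4 were higher (Csf3r, Retnlg, Mmp8 and Cxcr2) and none was at 0. The 7 mast cell and basophil genes summed to 217.4 and 458.9 CPM. Of the 6 past the floor, 2 were lower, 4 lay within 2-fold and none was higher by 2-fold. The 6 megakaryocyte and platelet genes summed to 424.1 CPM in macrophages and 100.2 CPM in monocytes, with 5 higher, on the side of Rab27b, which platelets are known to express. Of 9 erythroid genes, 7 passed the floor and all 7 were lower, with a sum of 8.19 CPM in macrophages and 162.3 CPM in monocytes, and 4 (Slc4a1, Hbb-bs, Car1 and Alas2) had no read in macrophages. B cell, T and NK cell, dendritic cell and stromal lists were also lower in sum, but not in every member. Of 2 T and NK cell genes past the floor, Nkg7 was lower (1.495 CPM in macrophages, 106.9 CPM in monocytes) and Cd4 higher (18.17 and 5.131 CPM). Of 5 stromal and endothelial genes past the floor, 3 were lower, 1 lay within 2-fold and Col3a1 was higher (10.94 and 0.6414 CPM). The part of these cells in the Rab values was not tested.

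Of the Rabs of lysosome-related organelles such as melanosomes, Rab38 was lower and Rab32 and Rab29 lay within 2-fold. Rab38 had 35 reads in macrophages and 124 in monocytes (2.09 and 9.94 CPM), 4.75-fold lower (3.24 to 7.13). Its close relative Rab32 stood at 102.5 CPM in macrophages and 132.8 CPM in monocytes and made up 97.3% of the summed level of the pair in macrophages, against 90.9% in monocytes. Rab29, a partner of the kinase LRRK2, stood at 40.6 and 30.6 CPM. It lies on the same chromosome as Rab7b, at 131867224 to 131872887 of chromosome 1.

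**Figure D3:**
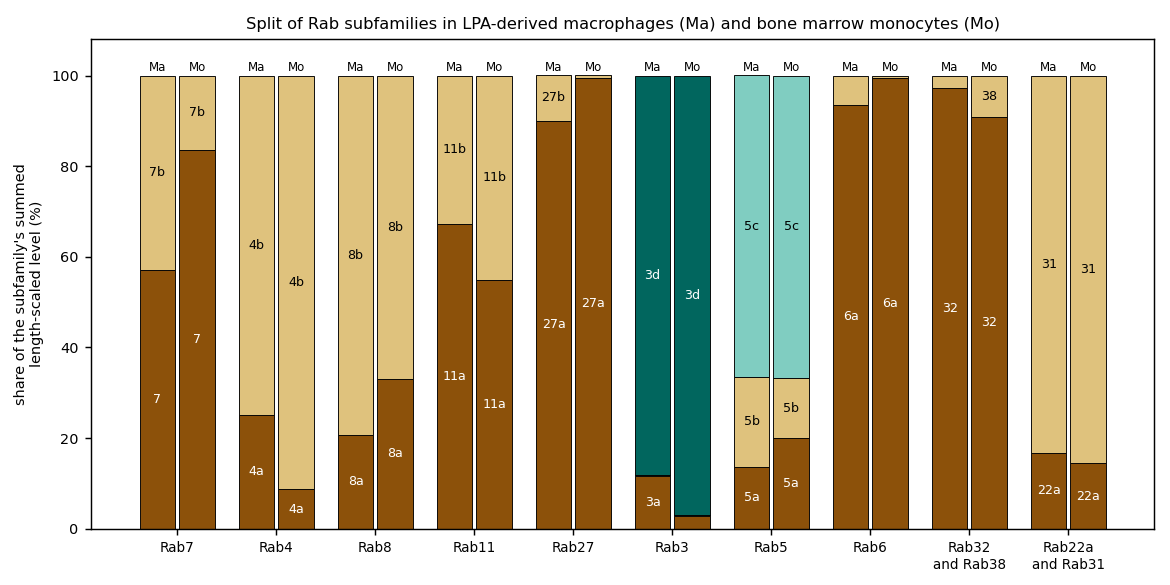
Share of each subfamily's summed length-scaled level (%) held by its members, in macrophages (Ma, left bars) and monocytes (Mo, right bars). Rab7b holds 42.8% of the Rab7 bar in macrophages and 16.4% in monocytes, while the Rab5, Rab6, Rab3 and Rab22a and Rab31 bars differ by less than 10 points.

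The cilium-related and less characterised members were low. Rab19 stood at 14.5 CPM in macrophages and 3.29 CPM in monocytes (4.40-fold higher, 3.15 to 6.29), and Rab23, a regulator of Hedgehog signalling, at 8.79 and 2.33 CPM (3.78-fold, 2.53 to 5.84). Rab40c, which has a SOCS box and joins a ubiquitin ligase, stood at 8.73 CPM in macrophages and 3.37 CPM in monocytes (2.59-fold, 1.83 to 3.75). Rab36 was lower, with 42 reads in macrophages and 116 in monocytes (3.70-fold, 2.58 to 5.41). Rab28, known from cone photoreceptors, stood at 30.1 and 40.7 CPM. The remaining 15 members were under the floor in both libraries. Of these, Rab4a came nearest to it, with 78 reads in macrophages and 20 in monocytes (4.66 and 1.60 CPM), beside 260 and 236 reads for its paralog Rab4b, 65.0% of whose exon bases lie in an overlapping gene. Rab33a, Rab39b, Rab3c and Rab9b had no exon read in either library, which allows up to 0.179 CPM in macrophages and 0.241 CPM in monocytes.

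Reads across exon junctions gave nearly the same picture for the members that matter most. Of the 16 members past 2-fold, 15 had a plain junction ratio on the same side, scaled by the same exon totals, and 14 had a plain ratio past 2-fold. On the log2(CPM + 1) scale of the calls, with junction totals, 9 of 44 Rab genes were higher and 4 lower. Over all genes past the floor, 13.1% were higher and 19.0% lower by these reads. Of the members past 2-fold by exon reads, Rab20, Rab23 and Rab39 were within 2-fold. For Rab7b there were 848 junction reads in macrophages and 115 in monocytes (5.50-fold, 4.52 to 6.74), and for Rab44 there were 382 and 1407 (4.94-fold lower). Rab34 had 171 and 8 junction reads, a 15.9-fold difference (7.91 to 37.5). Over the 44 members, 40 had exon and junction ratios within 1.5-fold of each other, the exceptions being Rab23, Rab27b, Rab34 and Rab39. Rab23, with 17 junction reads in macrophages and 9 in monocytes, was 1.41-fold higher by these reads (0.594 to 3.59).

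**Figure D4:**
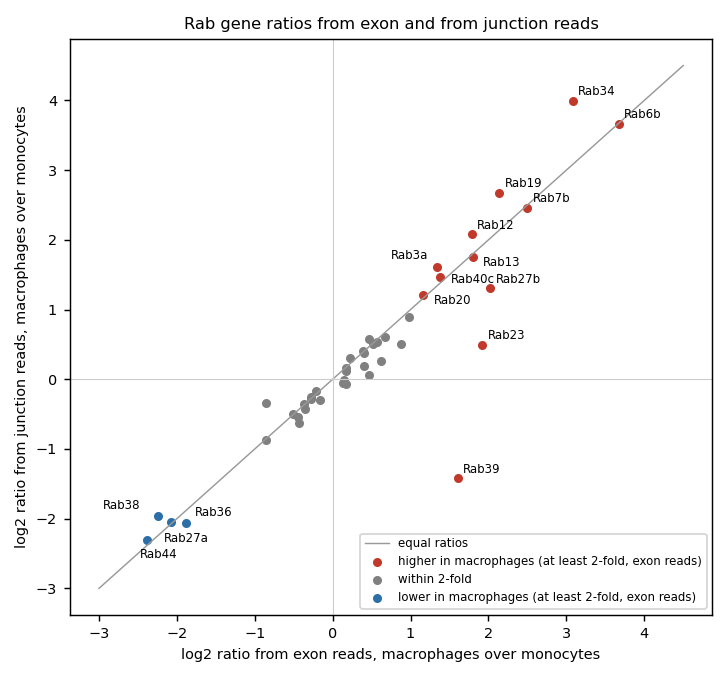
Log2 ratio of macrophages over monocytes from exon reads (x axis) and from junction reads (y axis) for the 44 Rab genes past the floor, with the line of equal ratios. The abundant members Rab7b and Rab44 lie on the line, and Rab39, with 1 and 2 junction reads, lies far off it.

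Intron reads told another part. Reads in introns made up 9.39% of the gene reads of the 44 Rab genes in macrophages and 17.6% in monocytes, beside 9.23% and 13.5% for all genes past the floor. The share was lower in macrophages for 32 of the 44 Rab genes and for 6982 of the 10407 genes. Intron counts of single genes are given here unscaled, and the macrophage library is the larger of the libraries. Rab7b had 759 intron reads in macrophages and 748 in monocytes, and its intron share was 12.0% in macrophages and 50.5% in monocytes. Rab12 had 407 and 334 intron reads, a share of 25.7% in macrophages and 56.8% in monocytes, and Rab31 had shares of 26.1% and 49.5%. In Rab7 the share was 5.85% in macrophages and 24.7% in monocytes, and in Rab11a 5.33% and 25.1%. Rab27a went the other way, with 20.5% in macrophages and 9.35% in monocytes. With introns counted, the log2 ratio of Rab7b was 1.73 instead of 2.48 and that of Rab12 was 1.06 instead of 1.74. Where the intron reads come from was not tested.

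Genes that load, unload, recycle and bind Rabs were read against the shares over all genes past the floor, 13.8% higher, 19.9% lower and 66.2% within 2-fold. Of 7 genes past the floor for GDP dissociation inhibitors, escort and prenylation, all lay within 2-fold, with a median log2 ratio of 0.28. Gdi2, the most abundant inhibitor gene, stood at 599.1 CPM in macrophages and 493.5 CPM in monocytes, and Rabac1, a prenylated Rab acceptor, stood at 224.7 and 112.2 CPM, a plain ratio at the threshold but 0.99 on the log2(CPM + 1) scale of the calls. All 14 TRAPP subunit genes, which encode tethering and exchange complexes of the secretory pathway, also lay within 2-fold (median 0.15). Of 30 exchange factor genes, 6 were higher, 3 lower and 21 within 2-fold (median 0.00), the last not far from the share of all genes. The largest ratio belonged to Sbf2, a member of the DENN and myotubularin families, with 81.1 CPM in macrophages and 4.17 CPM in monocytes (19.5-fold, 14.7 to 26.2). Dennd2a, another DENN gene, stood at 45.4 CPM in macrophages and 8.26 CPM in monocytes (5.50-fold, 4.47 to 6.82). Rab3il1, an exchange factor of Rab8 and Rab3, stood at 136.3 and 11.2 CPM (12.1-fold, 10.2 to 14.5). Rin2, an exchange factor of Rab5, was the most abundant of the list in macrophages, at 259.8 CPM against 76.2 CPM in monocytes. Dennd4a, an exchange factor of Rab10, was lower, at 43.4 CPM in macrophages and 213.0 CPM in monocytes, while its paralog Dennd4c stood at 93.9 and 31.8 CPM. Rabgef1, another exchange factor of Rab5, stood at 42.5 and 111.7 CPM, and Dennd2d at 9.63 and 23.9 CPM. Dennd5a, the second most abundant gene of the list in macrophages, stood at 193.6 and 264.0 CPM.

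Of 30 genes of GTPase-activating proteins, 2 were higher (Tbc1d12 and Tbc1d16), 1 was lower (Rabgap1l) and 27 lay within 2-fold (median -0.03). Tbc1d12 stood at 11.4 CPM in macrophages and 1.68 CPM in monocytes, Tbc1d16 at 14.7 and 4.41 CPM, and Rabgap1l at 23.9 and 60.9 CPM. The most abundant in macrophages, Tbc1d20, which acts on Rab1, stood at 151.4 CPM in macrophages and 87.6 CPM in monocytes. Among 38 effector genes, 6 were higher (15.8%, near the share of all genes), 2 lower (5.26%) and 30 within 2-fold (78.9%, median 0.09). Rab11fip5, an effector of Rab11, stood at 191.9 CPM in macrophages and 35.4 CPM in monocytes (5.43-fold, 4.91 to 6.01), whereas Rab11fip1 stood at 39.8 and 106.0 CPM. Rilp, which links Rab7 to dynein, had 163 reads in macrophages and 14 in monocytes (8.68-fold, 5.03 to 16.2), and Plekhm1, which links Rab7 to the HOPS tether, stood at 232.7 and 90.4 CPM (2.58-fold, 2.41 to 2.75). Rilpl1, a relative of Rilp, had 172 reads in macrophages and 25 in monocytes, and Rab11fip3, another effector of Rab11, had 205 and 34. Appl2, an effector of Rab5, stood at 84.2 CPM in macrophages and 23.3 CPM in monocytes. Sytl1, an effector of Rab27a, had 45 reads in macrophages and 127 in monocytes, 3.79-fold lower. The related genes Sytl2 (3.73-fold, 1.87 to 8.25), Sytl3 (4.13-fold, 2.36 to 7.70) and Sytl4 (1.85-fold, 1.17 to 3.01) were on the higher side, but under the floor. Sytl5 had 1 read in each library. The Rab27a effector Unc13d stood at 79.0 CPM in macrophages and 100.6 CPM in monocytes, and Myo5a, the most abundant effector gene in macrophages, at 441.4 and 235.5 CPM. Of 10 genes listed for HOPS, CORVET and related tethers, 2 were higher, Vipas39, whose product pairs with VPS33B in a complex other than these (112.9 CPM in macrophages, 34.7 CPM in monocytes) and the HOPS subunit gene Vps39 (108.2 and 49.0 CPM), and none was lower by 2-fold (median 0.21). The 5 Rab-like GTPase genes past the floor lay within 2-fold (median -0.23).

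**Figure D5:**
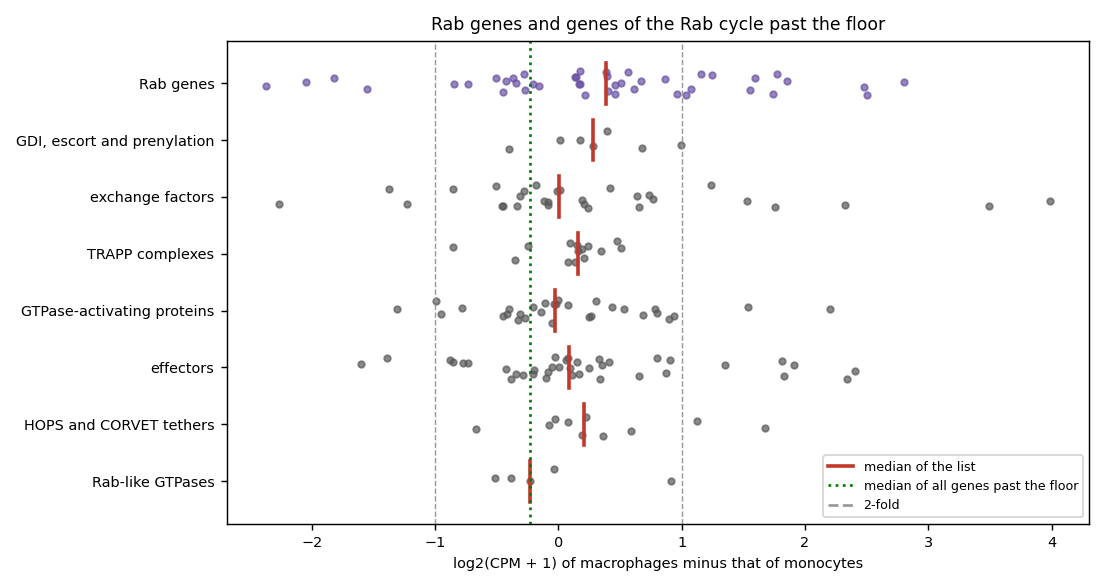
Difference of log2(CPM + 1), macrophages minus monocytes, for the Rab genes and the genes of each part of the Rab cycle past the floor, 1 point per gene, placed at random in height within its row. Red bars mark list medians, from -0.23 for the Rab-like GTPases to 0.39 for the Rab genes, and the dotted line marks the median of all genes at -0.23.

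RefSeq promoters on GRCm38.p6, running from 250 bases before to 50 after a start, were matched by symbol to 48 of the 59 genes. Rab7b, Rab44, Rab38, Rab36 and Rab27b have no entry. The E-box CACGTG, read the same on both strands and bound by the MiT/TFE factors of lysosomal genes among others, was found in the promoters of Rab20 and Rab23 among 10 higher members, in that of Rab27a, the only lower member with an entry, and in 3 of 25 members within 2-fold (12.0%). It occurs in 6 of the 48 Rab genes with a promoter (12.5%) and in 0 of the 12 under the floor. Over the 27025 genes with a promoter, counting any listed start of a gene, the share is 8.09%. The motif holds a CG pair. The median count of such pairs, at the highest start per gene, was 24.5 for Rab genes and 8 for all genes. These shares therefore do not compare like promoters. The AP-1 motif TGAGTCA, on either strand, was found in Rab34 among the higher members and in none of those within 2-fold. It was also found in 2 of 12 members under the floor (Rab15 and Rab39b). This makes 3 of the 48 Rab genes (6.25%), near the 5.95% of all genes. No match of either motif overlaps one of the other in the promoters shown. These promoters are given because they hold the matches in members past 2-fold, 5′ to 3′ on the gene's strand, with the matched letters in capitals:
Rab20 (higher, chr8:11478591-11478890, minus strand): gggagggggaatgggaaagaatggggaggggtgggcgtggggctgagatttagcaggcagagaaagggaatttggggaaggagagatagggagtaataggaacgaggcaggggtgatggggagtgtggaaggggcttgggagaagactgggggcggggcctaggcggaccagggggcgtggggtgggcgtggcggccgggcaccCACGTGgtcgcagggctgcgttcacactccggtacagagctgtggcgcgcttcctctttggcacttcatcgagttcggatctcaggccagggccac
Rab23 (higher, chr1:33719646-33719945, plus strand): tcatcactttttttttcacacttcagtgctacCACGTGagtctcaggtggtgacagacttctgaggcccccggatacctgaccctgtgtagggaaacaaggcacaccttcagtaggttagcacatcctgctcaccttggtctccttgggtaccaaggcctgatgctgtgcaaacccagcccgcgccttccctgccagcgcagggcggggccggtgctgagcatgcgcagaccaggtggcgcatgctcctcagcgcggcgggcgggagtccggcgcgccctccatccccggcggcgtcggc
Rab34 (higher, chr11:78188177-78188476, plus strand): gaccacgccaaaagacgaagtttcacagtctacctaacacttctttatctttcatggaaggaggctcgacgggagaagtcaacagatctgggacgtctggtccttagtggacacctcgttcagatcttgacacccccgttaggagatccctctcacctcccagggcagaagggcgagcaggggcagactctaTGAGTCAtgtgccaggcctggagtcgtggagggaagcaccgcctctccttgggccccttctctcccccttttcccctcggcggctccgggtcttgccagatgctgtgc
Rab27a (lower, chr9:73063898-73064197, plus strand): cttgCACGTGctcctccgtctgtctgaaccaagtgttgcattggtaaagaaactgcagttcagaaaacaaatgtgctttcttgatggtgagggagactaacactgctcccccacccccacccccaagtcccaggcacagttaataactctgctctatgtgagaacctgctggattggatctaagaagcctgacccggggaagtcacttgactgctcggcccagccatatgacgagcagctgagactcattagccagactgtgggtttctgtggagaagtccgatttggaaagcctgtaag
A match describes these letters only. The Rab23 promoter and the Rab34 promoter each belong to the first of a pair of listed starts and the Rab27a promoter to the second, and the other start of each gene holds neither motif.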

How the data were processed

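RNA sequencing libraries were made with a NEBNext Ultra kit from total RNA, 1 from LPA-derived macrophages and 1 from bone marrow monocytes, per the labels' protocols. The deposited table holds raw counts of unique reads in exons, introns, whole genes and exon junctions, RPKM values, a normalized signal and a signed fold change that serves as a score, per the file headers. Mapper and counter are named in no source used here. The genome build was mm9, per the submitters' processing notes, but the table's coordinates are those of GRCm38: all 59 identifiers were found in GENCODE M21, 45 with the same chromosome, start and end once the table's starts, counted from 0, were moved by 1. Sorted normalized values are the same in both libraries, as quantile normalization gives. The deposited RPKM equal exon reads over exon length and 1 total per library (0 genes off by more than 1%), and are not otherwise used.

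Exon read counts were scaled to CPM by their sum over all genes. The floor of 5 CPM, to be reached in either library, corresponds to 83.6 macrophage and 62.4 monocyte reads. Calls are a 2-fold difference of log2(CPM + 1), and named folds are plain CPM ratios. Values were computed with Python 3.11.15 (pandas 2.3.3, scipy 1.17.1) and checked on simulated data. A count of 0 is given as allowing 3 reads. The labels name no molecular identifiers, so intervals and limits cover counting error only.

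Unique counting leaves out reads of near-identical copies. With blastn (version 2.17.0, 97% identity over 100 bases), Rab11b, Rab5b, Rab7 and Rab8b match pseudogenes or predicted genes elsewhere, and Rab14 and Rab33b share stretches with many genes. Exon bases are shared with another GENCODE gene in 20 members, and no source used here says whether counting used strand, so levels of these members are uncertain.

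The members, role groups and partner lists were chosen with earlier results of these data known. Every member could be named. From partner lists, up to 6 genes past 2-fold with the largest ratios and some of the most abundant ones were named. Abundant genes left out, all within 2-fold, include Vps18 (129.5 CPM in macrophages, 113.0 CPM in monocytes), Ehbp1l1 (263.4 and 243.3 CPM) and Tbc1d10b (135.9 and 146.6 CPM). Unc13d, Rabgef1, Dennd2d, Plekhm1, Rab11fip1, Rabac1, Sytl2, Sytl3, Sytl4, Sytl5 and the marker genes given by name were chosen after their values were seen. Alternatives were other pseudocounts, floors, scalings (centring, edgeR 4.0.16 TMM factors, DESeq2 1.42.0 size factors, totals without the 20 highest genes of each library), gene reads and the authors' deposited fold change, and junction reads, which were added after seeing the data. No differential test was run with edgeR or DESeq2.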

Additional observations from a re-analysis of the deposited data

How the results depend on the processing

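The counts over all Rab genes were recomputed under 12 alternative settings. Counts of role groups and partner lists were recomputed under all of these except junction reads. Of the 16 Rab genes past 2-fold, 10 stayed past it under every setting in which they were counted (Rab12, Rab13, Rab19, Rab27a, Rab27b, Rab34, Rab38, Rab44, Rab6b and Rab7b), and 26 of the 28 within 2-fold stayed within it. Rab20, Rab23, Rab36, Rab39, Rab3a and Rab40c fell under 2-fold with a pseudocount of 5 CPM and some of them also with other reads or the deposited fold change, and Rab39 changed sign with junction reads (log2 ratio -0.24). The log2 ratio of Rab7b ran between 1.73 and 2.71 and that of Rab44 between -2.38 and -2.13.

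With a pseudocount of 5 CPM, 7 of 44 Rab genes were higher, beside 10.9% of all genes. Among them were 2 late endosomal, 1 secretory and 1 of the cilium group. None of the cilium group was lower (0), and 1 effector was lower, beside 15.9% of all genes. With a pseudocount of 0.5 CPM, 3 GTPase-activating protein genes were lower, beside 20.4% of all genes. At a floor of 25 CPM, 30 Rab genes were left by construction, 2 higher and 2 lower, with a median of 0.17. Over all genes past that floor, 12.1% were higher and 20.7% lower, with a median of -0.31. There, 1 recycling, 1 late endosomal and 3 effector genes were higher and 1 effector was lower, and 0 remained of the higher ER and Golgi, secretory, cilium group and GTPase-activating protein genes and of the lower lysosome-related and cilium group genes. The Rab median was 0.22 with no floor beyond 1 read.

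Scaling moved the median of all genes. The Rab median was 0.62 after centring, 0.60 with TMM, 0.61 with DESeq2 size factors and 0.56 without the top genes. Under each, 14 of 44 Rab genes were higher, 2 of them early endosomal. The shares of all genes higher under these scalings were 17.4%, 16.8%, 17.0% and 16.2% in that order. Under each of these, 1 gene of the GDI list and 1 Rab-like gene also passed 2-fold upward, as did 6, 5, 6 and 4 GTPase-activating protein genes in that order. With gene reads the Rab median was 0.23, with 1 early endosomal, 2 late endosomal and 1 GDI list gene higher and 3 GTPase-activating protein genes lower. Of all genes, 13.3% were higher and 19.7% lower with gene reads. With the authors' deposited fold change 1 early endosomal, 1 GDI list, 1 Rab-like and 4 GTPase-activating protein genes were higher. Of the GTPase-activating protein genes 2 were lower. By that fold change 16.2% of all genes were higher and 16.2% lower. With junction reads 9 of 44 Rab genes were higher, beside 13.1% of all genes, and the Rab median was 0.25. No paired analysis was possible because each group has 1 library. Rab39 had 1 and 2 junction reads in macrophages and monocytes and Rab23 had 17 and 9, so junction reads limit what can be said of them.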
